A study of Mus musculus with 6 samples.

Results

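The genes described here make or remove reactive oxygen species in mouse renal tubular epithelial cells (TECs) in which Sox9, a transcription factor of injured and repairing tubules, was knocked down. They were taken by name, with 4 genes of the NADPH oxidases (Nox4, Cyba, Cybb and Ncf1) and 5 scavenging enzymes (Sod1, Sod2, Sod3, Cat and Gpx1), and all 9 were found among the 30315 genes of the deposited table. Of these, 8 averaged at least 1 FPKM (fragments per kilobase of exon, scaled to the size of the library) and were among the 12009 genes tested, while Sod3 lay under that level. The comparison asks whether the oxidase genes and the scavengers shifted when Sox9 was lowered in injured cells.

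RNA was sequenced from primary TECs of C57BL/6 mouse kidney in 6 libraries, 3 transfected with an siRNA against Sox9 (siSox9) and 3 with a negative control siRNA (siNC). All 6 cultures went through hypoxia/reoxygenation (H/R), a culture model of ischemia and reperfusion, with 6 h at 1.0% oxygen without glucose and then 18 h of reoxygenation in complete medium. The siRNA was given with EndoFectin Max, a transfection reagent, 12 h before H/R in both groups. No library of cells kept out of H/R or of cells without siRNA was part of the comparison, so the values describe the effect of the siRNA within injured cells. The labels do not say whether the 3 libraries of a group came from separate animals or cultures, and the p-values measure the spread between these libraries, which may be technical.

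NADPH oxidases pass electrons from NADPH across a membrane to oxygen. Nox4 is the main oxidase of renal tubules, works together with the membrane subunit p22phox, which Cyba encodes, and releases mostly hydrogen peroxide. Cybb encodes NOX2, the oxidase best known from phagocytes, which needs cytosolic organizers such as Ncf1 (p47phox) before it makes superoxide. On the removing side, superoxide dismutases turn superoxide into hydrogen peroxide, which catalase (Cat) and glutathione peroxidases such as Gpx1 then break down to water.

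The library labels were checked with Sox9 itself, which stood at 8.93, 8.61 and 9.07 FPKM in siSox9 replicates 1, 2 and 3 and at 25.7, 26.5 and 25.6 FPKM in siNC. Sox9 was thus 34.2% of the siNC level (log2 difference -1.45 ± 0.03 SE, limma adjusted p = 7.03e-06). Marker genes of tubule epithelium were abundant, with all 10 of 10 tested (1 higher, 1 lower, median log2 difference -0.03) and sums of 4114 to 4271 FPKM in siSox9 and 3963 to 4168 FPKM in siNC. Most of these sums came from the keratin genes Krt8 (mean 2123 FPKM in siSox9 and 2089 FPKM in siNC) and Krt18 (1254 and 1194 FPKM). Markers of mature proximal tubule were nearly absent, since 1 of the 7 listed (Lrp2) passed the level filter and the list summed to 2.99 to 3.41 against 2.68 to 3.18 FPKM. Of the distal nephron and collecting duct markers 1 of 6 passed (Gata3), of endothelial markers 1 of 7, and of fibroblast and pericyte markers 2 of 7 (Acta2 and Col1a1, summed list 660 to 713 FPKM in siSox9 and 711 to 749 FPKM in siNC), with none past the threshold. Nearly all of the fibroblast and pericyte sum was Acta2, which averaged 686 FPKM in siSox9 and 727 FPKM in siNC. Col1a1 averaged 5.79 and 6.78 FPKM, and the other listed genes of that set were under 1 FPKM. The library totals by which the deposited values appear to be scaled, inferred from the value of 1 read, were between 23893197 and 25725743 reads.

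Across all tested genes, limma on log2(FPKM + 1) with Benjamini-Hochberg adjustment called 3650 of 12009 at an adjusted p under 0.05, which is 30.4%. Of these, 1532 were higher in siSox9 (12.8% of tested genes) and 2118 were lower (17.6%), and with each library centred on its median the split was 1959 higher and 1765 lower. The total was 2424 without siSox9 replicate 2. Against that background, 1 of the 8 tested genes of oxygen metabolism was called. That gene was Nox4, which was higher in siSox9, and none was called lower. A count of 1 in 8 is below the share called among all genes and is no result about the 8 as a group. In 4 of the 8 the groups did not overlap (Nox4 and Ncf1 with all siSox9 libraries above, Cyba and Cat with all of them below), where 46.3% of all tested genes had groups that did not overlap, 20.2% higher and 26.1% lower. The median log2 difference (siSox9 minus siNC) was 0.06 over the 4 oxidase genes and -0.04 over the 4 tested scavengers, beside -0.01 over all tested genes.

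The absolute levels spanned a wide range, and the scavengers held the top of it. Averaged over the 6 libraries, Sod1 stood at 163 FPKM and Gpx1 at 122 FPKM, followed by Cyba at 61.1, Cat at 49.2, Nox4 at 22.3, Sod2 at 12.5, Ncf1 at 2.31, Cybb at 2.04 and Sod3 at 0.027 FPKM. FPKM is scaled to exon length. The deposited values of Sod1 and Sod2 give whole reads with lengths of 646 and 3824 bases, the shortest found to do so. They do not with the 3970 and 10008 bases of the GENCODE M21 gene models. The same reads over these longer lengths would give 26.6 FPKM for Sod1 and 4.78 FPKM for Sod2. A longer model could also collect further reads, so levels and group differences under it were not measured. The places of both genes in the order may thus depend on the gene model. Within the deposited values every gene of the order exceeded the next in 6 of 6 libraries, except that Ncf1 exceeded Cybb in 4 of 6 and their ranges overlapped.

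**Figure D1:**
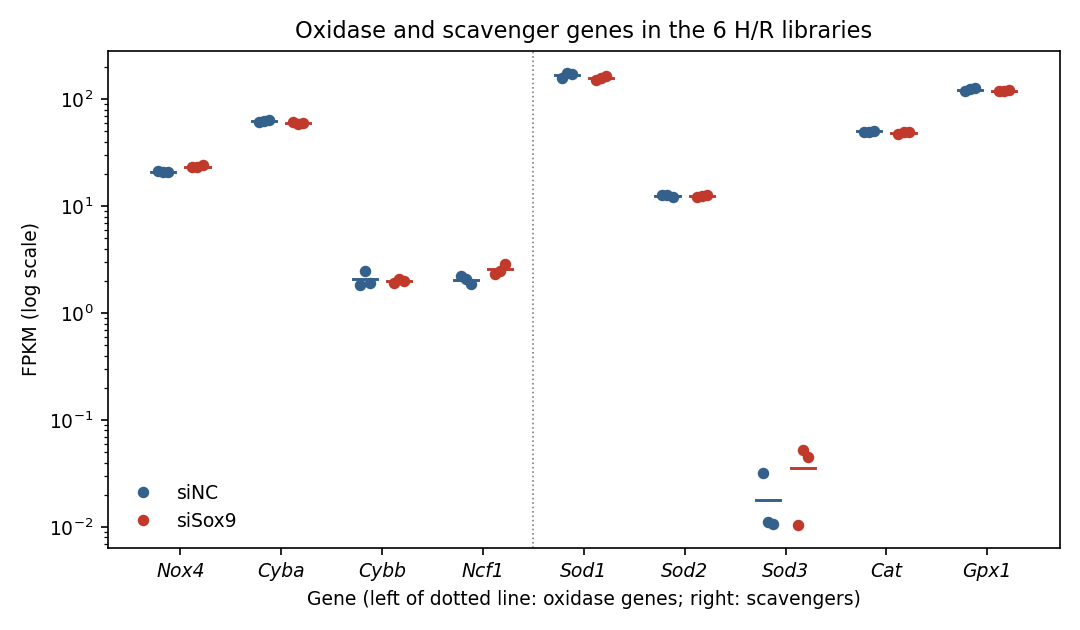
Expression of the 9 genes in the 6 libraries, with FPKM on a logarithmic vertical axis. Each point is 1 library, and each bar marks the mean of the 3 libraries in a group. Nox4 lies between 23.1 and 24.2 FPKM in siSox9 and between 20.7 and 21.5 FPKM in siNC, and most scavengers have overlapping groups.

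Nox4 is listed on GRCm38 at chr7:87246096-87398710 on the plus strand (ENSMUSG00000030562). Its level was 23.1, 23.1 and 24.2 FPKM in siSox9 replicates 1, 2 and 3 and 21.5, 20.7 and 21.1 FPKM in siNC. Every siSox9 library was above every siNC library, though the gap between the groups was small. The means were 23.5 ± 0.654 and 21.1 ± 0.362 FPKM (SD, n = 3 each), so Nox4 reached 111% of the siNC level. The log2 difference was 0.15 ± 0.03 (SE) with a 95% interval of 0.07 to 0.22, and limma gave an adjusted p of 0.0147. Nox4 rose in a well-covered range, as between 4242 and 5030 reads lay behind each value. The call held under all 14 alternative settings, where the difference was 0.13 to 0.18 and the adjusted p 0.00332 to 0.0495. In rank, 84.8% of all tested genes had a lower log2 difference than Nox4, which places its rise among the modest ones of these libraries.

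The stretch before the RefSeq start site of Nox4 is shown because Nox4 was the called gene of the 9. It is 250 bases of the RefSeq promoter on GRCm38.p6 at chr7:87246399-87246648, plus strand, and 67.2% of its bases are G or C. The RefSeq start lies downstream of the start listed in the deposited table, so this stretch is inside the listed gene.
Nox4 promoter: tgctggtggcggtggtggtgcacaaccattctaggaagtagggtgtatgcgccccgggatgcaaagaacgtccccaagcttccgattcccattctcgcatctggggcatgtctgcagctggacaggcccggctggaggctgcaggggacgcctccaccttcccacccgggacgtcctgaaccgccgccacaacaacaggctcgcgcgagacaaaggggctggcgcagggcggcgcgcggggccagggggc
In 300-base windows (250 bases before and 50 after the RefSeq start), the letters ACAAT or their reverse complement ATTGT, the core that SOX proteins bind, were searched for in the 8 of 9 genes with an entry, and 31.0% of 32851 promoters hold them. The window of Nox4 holds no match, nor do those of Ncf1, Cyba, Cybb, Sod2 and Cat. Gpx1 and Sod1 do, and their matches are printed here with the core in capitals to show where these letters occur among the 9 genes. The second Gpx1 match likewise lies inside the listed gene. So does the whole window of Cybb (chrX:9469275-9469574, minus strand), far downstream of its listed start at 9487771. A letter match is a description of the window and not a measured binding site.
Gpx1, 238 bases before the start, chr9:108338830-108338859, plus strand: cgatttaattaaACAATaagtgtaattaaa
Gpx1, 165 bases before the start, chr9:108338903-108338932, plus strand: gggtaaagttacACAATataagggagctgt
Sod1, 221 bases before the start, chr16:90220529-90220558, plus strand: cacagttagaagACAATagcgactttcccc
The antioxidant response core TGACNNNGC (or GCNNNGTCA on the other strand), to which NRF2 is known to bind, was found in 12.4% of all promoters and, among the 8 genes, in Sod1 alone, where it starts 56 bases before the start site.
Sod1, chr16:90220696-90220725, plus strand, antioxidant response core in capitals: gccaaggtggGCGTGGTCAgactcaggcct
Neither Gpx1 nor Sod1 passed the test between siSox9 and siNC.

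Cyba, listed at chr8:122424776-122432930 on the minus strand (ENSMUSG00000006519), encodes the membrane partner that both NOX4 and NOX2 need. It was the most abundant oxidase gene, at 60.6, 58.4 and 59.9 FPKM in siSox9 and 60.7, 63.1 and 63.8 FPKM in siNC. All siSox9 libraries lay below all siNC libraries, but siSox9 replicate 1 and siNC replicate 1 nearly met. The log2 difference was -0.07 ± 0.03 (SE), with a 95% interval of -0.14 to 0.01 and a limma adjusted p of 0.157, so it did not pass. Cyba and Nox4 therefore had differences of opposite sign, and Nox4 alone was called.

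Cybb (chrX:9435252-9487771, minus strand, ENSMUSG00000015340) shares an NAD-binding domain annotation with Nox4 in the deposited table. Its level was low, at 1.91, 2.1 and 1.98 FPKM in siSox9 and 1.84, 2.45 and 1.93 FPKM in siNC, with 266 to 344 reads per library. The groups overlapped, with siNC replicate 2 highest, and the log2 difference was -0.03 ± 0.08 (SE, 95% interval -0.23 to 0.16, limma adjusted p = 0.807). The sign turned to 0.05 without siNC replicate 2. In bulk RNA, fewer cells of a type and less RNA per cell cannot be told apart, which touches Cybb and Ncf1 because phagocytes express both.

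Ncf1, the organizer p47phox (chr5:134220053-134229625, minus strand, ENSMUSG00000015950), was at 2.33, 2.48 and 2.87 FPKM in siSox9 and at 2.22, 2.08 and 1.88 FPKM in siNC. All siSox9 libraries were above all siNC libraries, with 171 to 251 reads behind each value. The log2 difference of 0.22 ± 0.08 (SE, 95% interval 0.04 to 0.39) did not pass, at a limma adjusted p of 0.0663. It passed with median centring (0.24, adjusted p = 0.0471), with quantile normalization (0.29, adjusted p = 0.0286) and with limma voom on recovered reads (0.31, adjusted p = 0.0378). With TPM it did not pass (0.24, limma adjusted p = 0.0851). Limma thus placed Ncf1 on either side of the threshold by the setting used. Of the exon bases of Ncf1, 408 (11.1%) lie opposite exons of Gtf2ird2 on the other strand, and strand-specific counting is not stated in the sources used here. Gtf2ird2 was at 1.64 ± 0.163 FPKM in siSox9 and 1.98 ± 0.161 FPKM in siNC (SD, n = 3 each), a log2 difference of -0.17 that did not pass (limma adjusted p = 0.110). With limma voom on recovered reads Gtf2ird2 was called lower (-0.27, adjusted p = 0.0400). Of the 50-base words of Ncf1, 7.45% also occur in other genes, so reads could be shared. Nearly all of these words occur in Gtf2ird2, so they may reflect the same overlap and are not counted as a separate limit.

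Phagocyte markers were measured beside these 2 genes. Of 19 markers searched 17 were listed and 12 tested, and Lyz2 (lysozyme) alone was past the threshold, at 83.4 ± 3.91 FPKM in siSox9 and 71.9 ± 3.78 FPKM in siNC (SD, n = 3 each; log2 difference 0.21, limma adjusted p = 0.0175). The Lyz2 call was lost without the level filter (limma adjusted p = 0.0575). The whole list had a median log2 difference of 0.04 and summed to 153 to 168 FPKM in siSox9 and 145 to 150 FPKM in siNC, which do not overlap. Without Lyz2 the sums overlapped, at 72.9 to 80.2 and 73.5 to 77.7 FPKM. The neutrophil gene S100a8 was listed at 0 in all libraries, and the leukocyte gene Ptprc averaged 0.653 FPKM in siSox9 and 0.724 FPKM in siNC. Other markers of the list stood above Cybb and Ncf1 in both groups. In siSox9 and siNC, Cd68 averaged 11.8 and 10.9 FPKM and Tyrobp 11.5 and 11.9 FPKM. Fcer1g averaged 11.3 and 11.2 FPKM and Csf1r 9.38 and 9.66 FPKM. The part of phagocyte RNA in the values of Ncf1 and Cybb was not tested.

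Sod1 encodes the copper and zinc superoxide dismutase of the cytosol and is listed at chr16:90220742-90226322 on the plus strand (ENSMUSG00000022982). Its levels of 152, 159 and 165 FPKM in siSox9 overlapped with 157, 175 and 172 FPKM in siNC. The log2 difference was -0.08 ± 0.05 (SE), with a 95% interval of -0.20 to 0.04 and a limma adjusted p of 0.288. Ccs, the chaperone that loads copper into SOD1, also did not pass (18.3 ± 1.02 against 19.5 ± 0.573 FPKM, SD, n = 3 each; log2 difference -0.09, limma adjusted p = 0.186).

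Sod2, the manganese superoxide dismutase of mitochondria (listed at chr17:13007839-13018119, plus strand, ENSMUSG00000006818), showed no separation of the groups. It was at 12.1, 12.6 and 12.7 FPKM in siSox9 and at 12.6, 12.8 and 12.2 FPKM in siNC, fully interleaved. The log2 difference was -0.0043 ± 0.04 (SE, 95% interval -0.09 to 0.08, limma adjusted p = 0.941), and its sign changed with the scaling. The interval leaves out differences as large as the 0.15 of Nox4. Of the 50-base words of Sod2, 21.04% also occur in other genes, many of them in Rps6ka2, so reads could be shared. That was the largest share among the oxidase and scavenger genes, above the 7.45% of Ncf1. The words were counted on the longer gene model, and the share within the length that fits the deposited values was not measured.

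Sod3, the secreted superoxide dismutase (chr5:52363791-52371418, plus strand, ENSMUSG00000072941), was barely detected. The deposited values correspond to 1, 5 and 4 reads in siSox9 and 3, 1 and 1 reads in siNC, or 0.0104 to 0.0527 and 0.0108 to 0.0323 FPKM. An exact 95% Poisson interval, which covers counting error only, runs from 0.0253 to 5.57 for 1 read and from 1.62 to 11.7 for 5 reads, so the counts cannot be told apart. A difference in Sod3 was not detectable at this depth, where 3 reads amount to 0.0312 to 0.0336 FPKM.

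Catalase, the peroxisomal enzyme that splits hydrogen peroxide, is encoded by Cat (chr2:103453849-103485160, minus strand, ENSMUSG00000027187). Its level was 46.9, 49.1 and 48.9 FPKM in siSox9 and 49.8, 49.8 and 50.6 FPKM in siNC. All siSox9 libraries were below all siNC libraries, by a margin of under 1 FPKM between the nearest. The log2 difference was -0.05 ± 0.03 (SE), the 95% interval ran from -0.12 to 0.02, and limma gave an adjusted p of 0.246.

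Gpx1, the cytosolic and mitochondrial glutathione peroxidase (chr9:108338903-108340343, plus strand, ENSMUSG00000063856), was at 118, 120 and 123 FPKM in siSox9 and at 119, 124 and 127 FPKM in siNC. The groups overlapped and the log2 difference was -0.03 ± 0.03 (SE, 95% interval -0.11 to 0.05, limma adjusted p = 0.554). All 4 tested scavengers had differences below 0, and none passed the test. Each interval of this fit included 0, and none reached below -0.20 on the log2(FPKM + 1) scale. The intervals cover the spread between these libraries only. Leaving out single libraries moved the Sod1 difference to between -0.13 and -0.05.

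**Figure D2:**
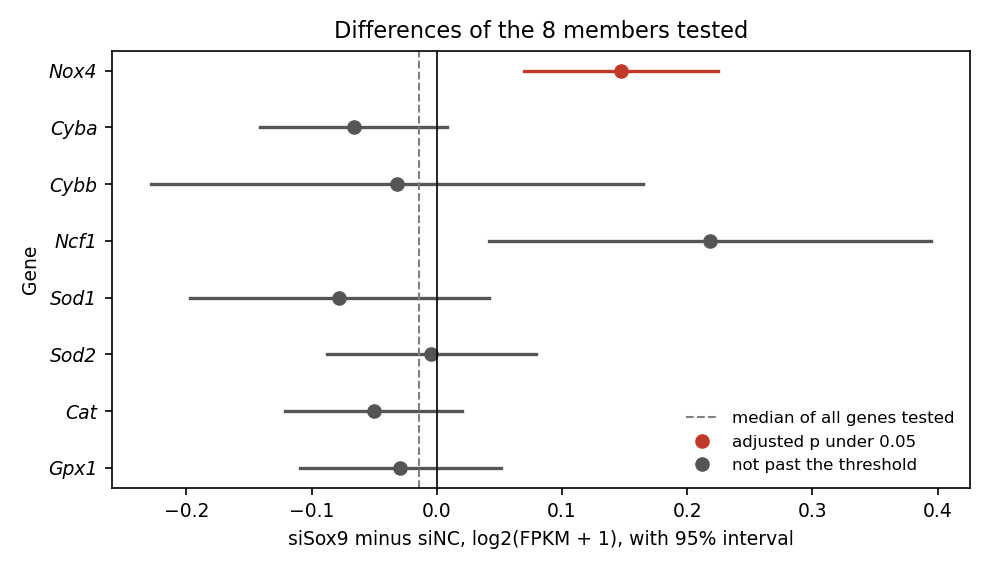
Difference between siSox9 and siNC for the 8 tested genes, as log2(FPKM + 1) on the horizontal axis, with points for the limma estimate and bars for its 95% interval. The interval of Nox4 lies above 0 at 0.07 to 0.22, that of Ncf1 also excludes 0 but its adjusted p is 0.0663, and the intervals of Cyba, Cybb and the 4 scavengers include 0.

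Ratios within a library do not depend on its scaling, and they placed the small rise of Nox4 beside its partners. Nox4 per Cyba was 0.381, 0.395 and 0.404 in siSox9 and 0.354, 0.329 and 0.330 in siNC, with no overlap (0.393 ± 0.0118 against 0.338 ± 0.0140, SD, n = 3 each). Nox4 per Cat was 0.492, 0.470 and 0.495 in siSox9 and 0.431, 0.416 and 0.416 in siNC. Relative to Sod2 and to Gpx1, Nox4 was likewise higher in every siSox9 library, with ratios of 1.83 to 1.90 against 1.62 to 1.73 for Sod2 and of 0.192 to 0.197 against 0.166 to 0.181 for Gpx1. Nox4 per Cybb overlapped, at 11.02 to 12.2 in siSox9 and 8.45 to 11.6 in siNC. These ratios share the Nox4 values and are not separate evidence. An exact permutation test of 3 against 3 libraries cannot go below p = 0.1, so they are given as values.

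The scavengers kept overlapping proportions among themselves. Gpx1 per Cat, the balance of both peroxide-removing enzymes, was 2.53, 2.45 and 2.51 in siSox9 and 2.38, 2.48 and 2.50 in siNC. Sod1 made up 92.6% to 92.8% of the summed superoxide dismutase FPKM in siSox9 and 92.6% to 93.4% in siNC. The size of this share, of the scavenger sums and their ratio, and of Nox4 per Sod2 may depend on the gene models of Sod1 and Sod2. Within the oxidase sum, Cyba took 67.3% to 68.9% in siSox9 and 70.4% to 72.0% in siNC, and Nox4 26.2% to 27.2% and 23.5% to 24.9%. The sum itself overlapped, at 86.1 to 89.0 and 86.2 to 88.6 FPKM. The 5 scavengers summed to 329, 341 and 350 FPKM in siSox9 and 338, 361 and 362 FPKM in siNC, and per oxidase sum they came to 3.88 ± 0.118 against 4.03 ± 0.0950 (SD, n = 3 each) with overlapping libraries.

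**Figure D3:**
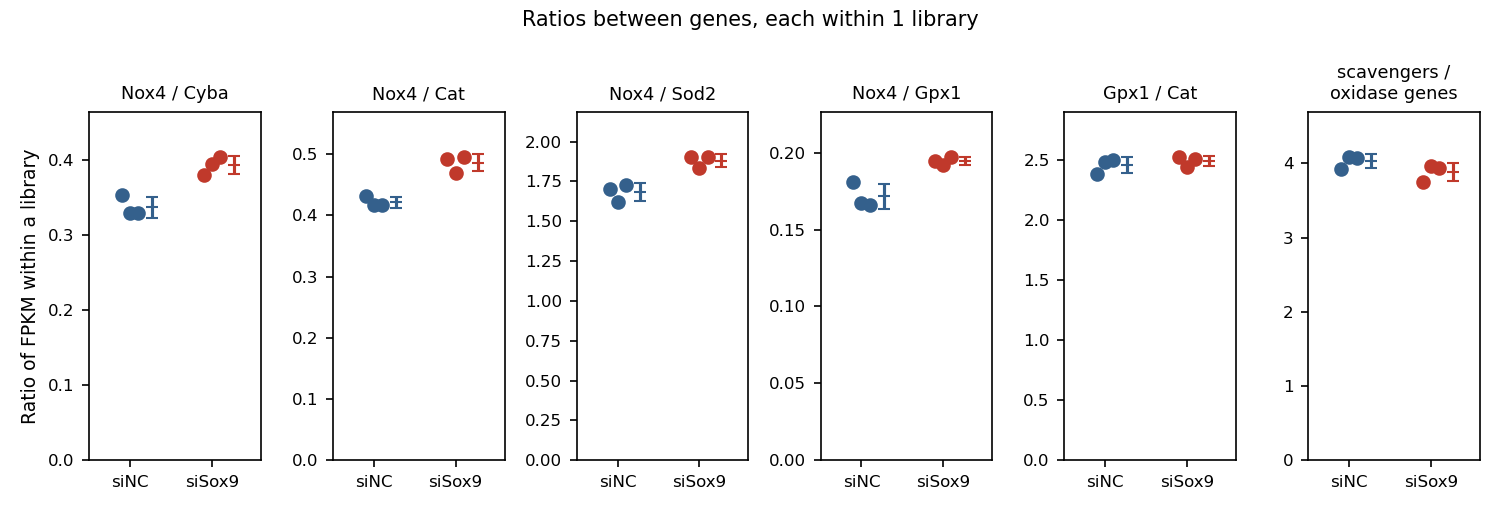
Ratios of FPKM between genes within each library, from 0 on the vertical axis, with 1 point per library and bars for the mean and SD of 3. The 4 plotted ratios with Nox4 on top separate the groups (Nox4 per Cyba 0.381 to 0.404 in siSox9 and 0.329 to 0.354 in siNC), while Gpx1 per Cat and scavengers per oxidase genes overlap.

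The other subunits and partners of NADPH oxidases were few in these cells. Of 14 searched 12 were listed and 5 tested, of which 2 rose and none fell, with a median log2 difference of -0.07, where 12.8% of all tested genes were called higher. Rac1, the small GTPase that activates NOX2, was 70.1, 70.7 and 70.2 FPKM in siSox9 and 65.0, 63.6 and 65.4 FPKM in siNC (log2 difference 0.12 ± 0.03 SE, limma adjusted p = 0.0145). Poldip2, which binds p22phox and raises NOX4 activity, was 20.8, 21.4 and 21.6 FPKM in siSox9 and 19.9, 18.7 and 18.9 FPKM in siNC (0.14 ± 0.04 SE, limma adjusted p = 0.0226). Both rises were of the size seen for Nox4, and both calls were fragile. With TPM the limma adjusted p was 0.0559 for Rac1 and 0.0729 for Poldip2, and without siSox9 replicate 2 neither was called. Without siSox9 replicate 3, siNC replicate 2 or siNC replicate 3, Rac1 alone of the list was called. The phagocyte genes Ncf4 (log2 difference -0.07, limma adjusted p = 0.464) and Rac2 (-0.12, limma adjusted p = 0.221), named after their values were seen, did not pass, and Noxa1 was listed at 0 throughout.

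Other enzymes that form superoxide or hydrogen peroxide moved in both directions. Of 20 listed 13 were tested, 3 rose and 3 fell, with a median log2 difference of -0.09, where 30.4% of all tested genes were called. With limma voom on recovered reads the split was 1 higher and 6 lower, and Lox and Ero1l had no value there. Lox, which crosslinks collagen and elastin, rose from 37.6 ± 3.0 FPKM in siNC to 45.6 ± 0.377 FPKM in siSox9 (log2 difference 0.27, limma adjusted p = 0.00937), and its relative Loxl1 fell from 19.6 ± 1.67 to 14.3 ± 1.46 FPKM (-0.44, adjusted p = 0.00793; SD, n = 3 each). Ero1l, the oxidase that drives disulfide bonding in the endoplasmic reticulum, rose (0.22, limma adjusted p = 0.0047), and the polyamine oxidase Paox fell (-0.32, limma adjusted p = 0.00259). The changes in Lox and Loxl1 exceeded that of Nox4 in size and had opposite signs within 1 enzyme family.

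Beyond Gpx1, 4 of 7 glutathione peroxidases searched were tested, and 1 fell and none rose, with a median log2 difference of -0.15, where 17.6% of all tested genes were called lower. It was Gpx3, the secreted glutathione peroxidase that kidney supplies to plasma, at 37.9, 36.9 and 37.2 FPKM in siSox9 and 53.4, 48.3 and 49.1 FPKM in siNC. The groups were far apart, with a log2 difference of -0.42 ± 0.04 (SE) and a limma adjusted p of 0.000618. Gpx4, which removes lipid peroxides, was 121 ± 3.62 and 126 ± 6.68 FPKM (SD, n = 3 each) and did not pass (limma adjusted p = 0.338). Without siSox9 replicate 3, 2 genes of the list were called.

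Peroxiredoxins and the thioredoxin system remove peroxide by a separate route, in which peroxiredoxins reduce the peroxide and thioredoxin restores them. All 16 were tested, 7 rose and 2 fell, and the median log2 difference was 0.12. Txnrd1, the cytosolic thioredoxin reductase and a selenoprotein, rose from 62.1, 63.8 and 64.1 FPKM in siNC to 94.8, 95.2 and 96.4 FPKM in siSox9 (0.58 ± 0.03 SE, limma adjusted p = 5.94e-05). Prdx6 rose from 59.2 ± 2.18 to 76.8 ± 2.39 FPKM (0.37, limma adjusted p = 0.000675) and Prdx1 from 163 ± 3.70 to 193 ± 10.3 FPKM (0.24, limma adjusted p = 0.00654). Glrx, a glutaredoxin, fell from 4.09 ± 0.186 to 2.97 ± 0.0563 FPKM (-0.36, limma adjusted p = 0.00164; SD, n = 3 each). Of all tested genes 12.8% were called higher and 17.6% lower. The count of 9 called genes dropped to 5 without siSox9 replicate 2 and to 4 without siSox9 replicate 3.

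The genes that supply glutathione, metals and selenium to the scavengers gave 4 higher and 2 lower of 13 tested, with a median log2 difference of 0.07, where 30.4% of all tested genes were called. Gss, the glutathione synthetase, rose (3.68 ± 0.145 to 4.86 ± 0.307 FPKM; log2 difference 0.32, limma adjusted p = 0.0041), as did Secisbp2, which is needed to insert selenocysteine (0.24, limma adjusted p = 0.0083). Selenop, the selenium carrier of plasma, fell from 4.57 ± 0.262 to 3.21 ± 0.173 FPKM (-0.40, limma adjusted p = 0.00193; SD, n = 3 each). Gpx1 itself depends on selenium and differed by -0.03. The count of 6 was 3 when siSox9 replicate 2, siSox9 replicate 3 or siNC replicate 3 was left out.

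Catalase enters peroxisomes through the import machinery, of which 15 of 15 genes were tested, 3 rose and 2 fell, with a median log2 difference of 0.0029. That share is near the 30.4% called among all tested genes and is no result about the list. Pex6, an ATPase that recycles the import receptor, rose from 5.83 ± 0.317 to 8.76 ± 0.744 FPKM (log2 difference 0.51, limma adjusted p = 0.00135), and Pex26, its membrane anchor, from 7.2 ± 0.439 to 8.94 ± 0.527 FPKM (0.28, limma adjusted p = 0.00995; SD, n = 3 each). The count of 5 was 3 without siSox9 replicate 2 or siNC replicate 2 and 2 without siNC replicate 3.

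**Figure D4:**
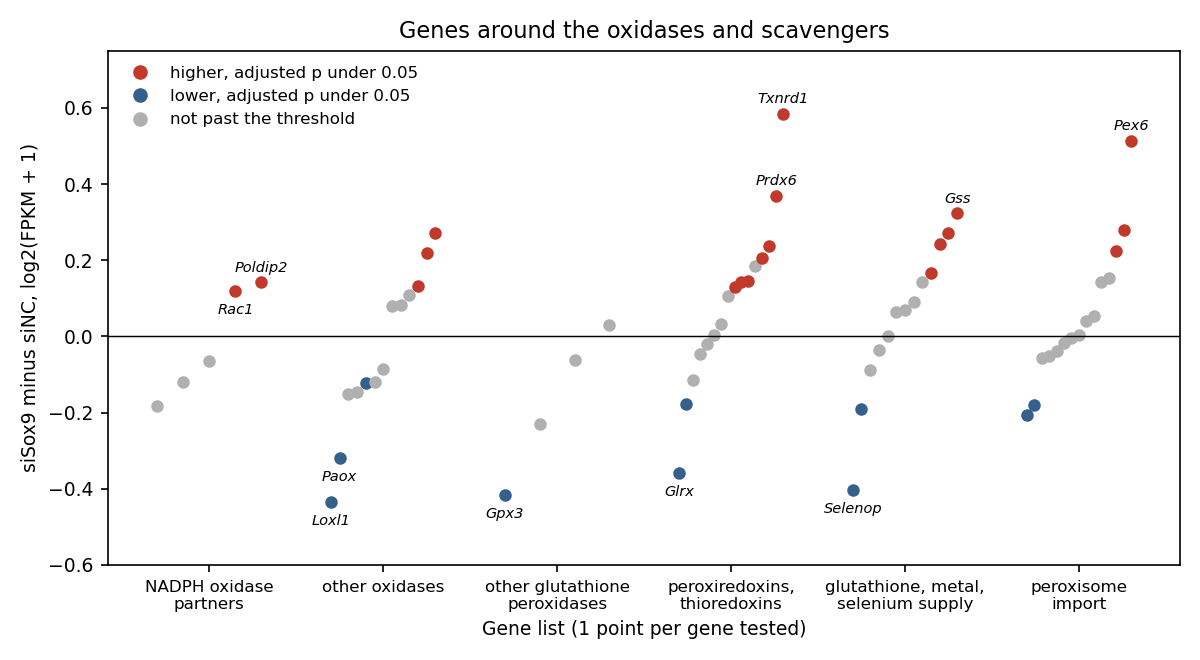
Differences between siSox9 and siNC, as log2(FPKM + 1), for the tested genes of 6 related lists on the horizontal axis, with 1 point per gene and red or blue for genes higher or lower past the limma threshold. Txnrd1 at 0.58, Pex6 at 0.51, Loxl1 at -0.44 and Gpx3 at -0.42 lie far outside the range of -0.08 to 0.22 covered by the 8 tested oxidase and scavenger genes, which are not plotted.

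The genes whose profile over the 6 libraries was closest to that of Nox4, by the root mean square difference of centred log2 values, were Taf1b, a subunit of the RNA polymerase I initiation factor (0.0127), and Ensa, an inhibitor of the phosphatase PP2A in mitosis (0.0142). Taf1b was 5.78, 5.84 and 6.08 FPKM in siSox9 and 5.40, 5.07 and 5.31 FPKM in siNC, and its log2 difference of 0.14 passed (limma adjusted p = 0.0366). Ensa was 16.1, 15.7 and 16.7 FPKM in siSox9 and 15.0, 14.5 and 14.6 FPKM in siNC (0.13, limma adjusted p = 0.0296). Likeness over 6 libraries from 2 groups mostly reflects a shared difference between the groups.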

How the data were processed

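RNA from 6 libraries of primary mouse TECs (3 siSox9, 3 siNC, grouped by their labels) was sequenced. The authors deposited 1 table of FPKM values per gene. The submitters' processing notes name HISAT2 2.1.0, Bowtie2 2.2.3, TopHat2 and mm9, without roles. Positions in the table match GRCm38 instead, since 93.3% of the genes found in GENCODE M21 have the same position there. The counting tool and its strand setting are not given in the sources used here. Columns for siSox9 carry a short siRNA name that was matched to the siSox9 samples because the other columns name the control.

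All genes averaging 1 FPKM or more across libraries were fitted as log2(FPKM + 1) with limma 3.58.1 in R 4.3.3 (trend in the prior variance, no replicate block), with Benjamini-Hochberg adjustment over all 12009 genes and an adjusted p under 0.05 as threshold. Differences are siSox9 minus siNC on that scale, which understates changes of low genes. To recover reads, FPKM was multiplied by exon length and divided by the value of 1 read in that library. This gave whole reads in all libraries for 92.4% of the matched genes (tolerance 0.02). These reads went into limma voom as an alternative chosen after seeing the data. PCR duplicates cannot be told from molecules, so read intervals cover counting error only. The fit was tested on simulated data. Sequences are from RefSeq (GRCm38.p6). The 9 genes and the lists were chosen with earlier results of these data known. Of each related list, the genes with the largest differences among those called were eligible to be named (at most 5), and of these the text names those called under every alternative that gave them a value (voom gave none for Lox, Ero1l and Selenop, and the stricter filter none for Paox, Glrx, Gss and Selenop), with Rac1, Poldip2, Ncf4, Rac2, Ccs, Gpx4, Lyz2 and Gtf2ird2 in addition. The phagocyte markers Cd68, Tyrobp, Fcer1g and Csf1r were also added. The narrowing and all additions were made after the values were seen. A result for 1 gene is not reported here. The 2 nearest profiles to Nox4 were named. Alternatives were a pseudocount of 0.1, no filter, a mean of at least 5 FPKM, TPM, median centring, quantile normalization, a replicate block and leaving out each library.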

Additional observations from a re-analysis of the deposited data

How the results depend on the processing

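Alternatives comprised 13 planned settings and 1 added after seeing the data (limma voom on recovered reads). For the related lists and their genes, all of these were added after seeing the data. Nox4 was called under all of them. Among the 9 genes, 2 were called in place of 1 with median centring, quantile normalization and voom, the second being Ncf1. Sod1 and Cyba were called under none of the 14 settings. Their limma adjusted p ran from 0.0547 to 0.587 for Sod1 and from 0.0632 to 0.565 for Cyba. Signs turned for genes that were not called. Cybb was 0.041 with quantile normalization and ran from -0.085 to 0.054 when single libraries were left out. Gpx1 was 2.87e-05 with TPM. Sod2 was 0.023 with TPM, 0.022 with median centring and 0.0038 with quantile normalization, and ran from -0.023 to 0.015 over the left-out libraries. Leaving out single libraries gave 2424 to 3654 called genes in the whole table. In the lists it gave 0 to 2 oxidase partners, 1 to 2 other glutathione peroxidases, 4 to 9 peroxiredoxins and thioredoxins, 3 to 6 glutathione and metal supply genes and 2 to 5 peroxisome genes. Without a filter, 3 supply genes and 3 peroxisome genes were called, and with a mean of at least 5 FPKM, 2 and 3. With TPM, 0 oxidase partners and 3 peroxisome genes were called, and with quantile normalization 1 oxidase partner. The causes of these shifts were not tested. Cybb and Ncf1 have no value at a mean of at least 5 FPKM.

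Replicate numbers did not pair the libraries (correlations of same-numbered deviations 0.065, -0.050 and 0.0078). With a replicate block 3262 genes were called (1373 higher, 1889 lower), 1 of the 9 genes (Nox4, limma adjusted p = 0.0326) and 1 oxidase partner. Depth limits Sod3 (1 to 5 reads), and small differences in Cybb and Ncf1 rest on 171 to 344 reads per library.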
